A study of Mus musculus with 24 samples.

Results

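Pdzrn3, its antisense neighbour Gm26911 and the other genes of its ligase family, Pdzrn4, Lnx1 and Lnx2, were followed through progenitors and neurons of the embryonic mouse cortex with and without Prdm16. These are 5 of the 39017 genes in the deposited count tables, and all 5 symbols matched an Ensembl identifier there. Pdzrn3 was taken up because it differed between the genotypes in PAX6+ and TBR2+ cells, and Gm26911 because it lies in the same locus. Their values, between KO and WT and between the WT populations that were an arm of that choice, are therefore given as a description, without a test. Pdzrn4, Lnx1 and Lnx2 were chosen by family and were tested. The 24 libraries came from sorted cells of embryonic cortex at E15.5, as 3 populations of 2 genotypes with 4 libraries each. PAX6+ cells are labelled as radial glia, TBR2+ cells as intermediate progenitors (TBR2 is the protein of Eomes), and cells negative for both, written PAX6-TBR2-, as neurons. KO embryos were Emx1Ires-Cre; Prdm16flox/flox and WT embryos were Prdm16 flox/flox without Cre, so both carried the floxed allele, and the Cre insertion and the loss of Prdm16 are effects that cannot be told apart. Cre from the Emx1 locus acts in dorsal forebrain progenitors and their descendants, and interneurons that migrate in from ventral regions lie outside it. The replicates are called biological, with no embryo or litter named, so p-values measure the spread between these libraries.

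Pdzrn3 encodes a ubiquitin ligase with a RING domain and PDZ domains, also called LNX3. It is known for controlling the muscle receptor kinase MuSK at the mouse neuromuscular junction and for acting on Dishevelled in Wnt signalling of mouse blood vessels. Lnx1 and Lnx2 encode RING and PDZ ligases first described as binding partners of Numb, an inhibitor of Notch that is used in cortical progenitors. Pdzrn4 encodes the closest relative of PDZRN3, also called LNX4. Gm26911 is annotated as an antisense RNA without a known role.

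On the GRCm38 assembly, Pdzrn3 (ENSMUSG00000035357) occupies chromosome 6 from 101149609 to 101377897 on the minus strand. Gm26911 (ENSMUSG00000097834) lies inside it on the plus strand, from 101198569 to 101220141. In GENCODE M21 the exons of Gm26911 share 0 bases with those of Pdzrn3, and most of them fall in the longest Pdzrn3 intron. Pdzrn4 (ENSMUSG00000036218) is on chromosome 15 from 92396881 to 92771819, plus strand. Lnx1 (ENSMUSG00000029228) and Lnx2 (ENSMUSG00000016520) are both on the minus strand of chromosome 5, from 74592447 to 74702912 and from 147016655 to 147076586. Exons of Lnx1 share 466 bases with exons of Fip1l1 on the opposite strand, a gene at 124 to 154 CPM (counts scaled to library depth) on average in the 6 groups. Because the strand setting of the counting is not given in the sources used here, reads from such opposite partners cannot be told apart.

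**Figure D1:**
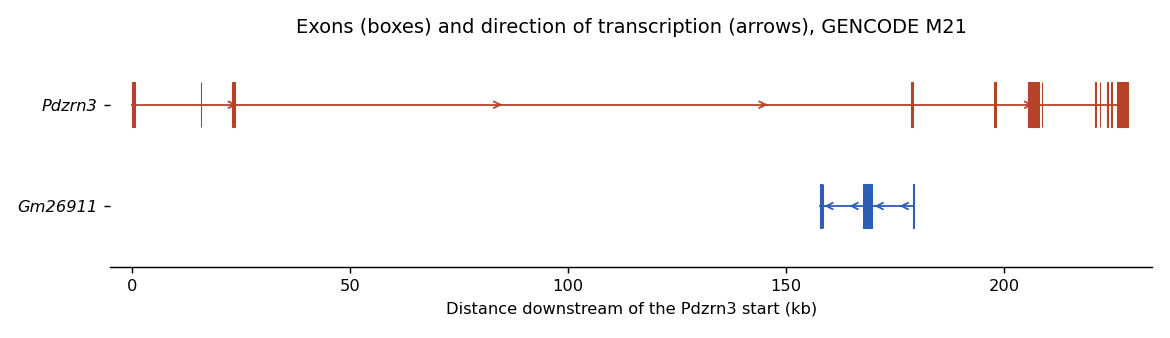
Exons of Pdzrn3 and Gm26911 in GENCODE M21, in kb downstream of the Pdzrn3 start; boxes are exons and arrows give the direction of transcription. Gm26911 runs against Pdzrn3, and its exons, between 157.756 and 179.328 kb, share no base with those of Pdzrn3.

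The 250 bases before the annotated starts are shown for Pdzrn3 and Gm26911, which differed between the genotypes together, and for Lnx2 and Pdzrn4, which were highest in the same WT population as Pdzrn3. They are RefSeq sequences on GRCm38.p6, written 5′ to 3′ in the direction of transcription, and capitals mark each CG dinucleotide. The windows are chr6:101377898-101378147 (minus strand) for Pdzrn3, chr6:101172193-101172442 (plus strand) for Gm26911, chr5:147076573-147076822 (minus strand) for Lnx2 and chr15:92396560-92396809 (plus strand) for Pdzrn4.
Pdzrn3: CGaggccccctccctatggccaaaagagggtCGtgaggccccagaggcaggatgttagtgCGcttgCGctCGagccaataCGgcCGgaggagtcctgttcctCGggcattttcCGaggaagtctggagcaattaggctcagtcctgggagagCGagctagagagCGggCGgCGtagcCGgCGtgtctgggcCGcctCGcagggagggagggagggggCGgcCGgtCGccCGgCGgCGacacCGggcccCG
Gm26911: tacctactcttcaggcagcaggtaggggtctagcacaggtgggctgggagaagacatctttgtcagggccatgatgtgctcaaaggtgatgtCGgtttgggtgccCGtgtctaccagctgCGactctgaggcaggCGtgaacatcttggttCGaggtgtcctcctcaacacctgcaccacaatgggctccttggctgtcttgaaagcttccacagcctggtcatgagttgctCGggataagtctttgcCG
Lnx2: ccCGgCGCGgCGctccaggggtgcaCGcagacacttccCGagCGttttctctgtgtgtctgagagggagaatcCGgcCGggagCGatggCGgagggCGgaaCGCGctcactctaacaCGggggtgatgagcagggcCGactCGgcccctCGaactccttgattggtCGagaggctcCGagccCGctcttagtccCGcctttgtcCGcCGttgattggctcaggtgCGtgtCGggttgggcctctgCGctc
Pdzrn4: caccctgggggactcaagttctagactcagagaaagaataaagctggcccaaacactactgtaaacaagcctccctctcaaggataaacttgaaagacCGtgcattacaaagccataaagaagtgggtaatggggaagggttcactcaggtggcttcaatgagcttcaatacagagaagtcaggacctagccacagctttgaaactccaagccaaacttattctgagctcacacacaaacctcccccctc
The Pdzrn3 window holds 25 CG and the Lnx2 window 27, and 10.7% and 8.57% of 32841 RefSeq promoter windows of the same length hold as many or more. The Gm26911 window holds 7, the Lnx1 window 6, and the windows of the 2 RefSeq starts of Pdzrn4 hold 1 and 2, beside a median of 6. The letters CANNTG, searched on both strands, occur 0 times before Pdzrn3, 3 times before Gm26911, 1 time before Lnx2, 3 times before Lnx1, and 1 and 4 times before the starts of Pdzrn4; 66.2% of all windows hold them. RefSeq starts Gm26911 at 101172443, which is 26.1 kb upstream of its start in GENCODE M21. Of its 250 bases, 243 lie inside a coding exon of Pdzrn3, so that window is coding sequence of the opposite gene rather than free upstream DNA.

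Library totals were 4948977 to 12554161 counts, apart from 30027954 in WT PAX6-TBR2- replicate 4. The share of mitochondrial transcripts was 11.3% to 39.3%, and 30.5% to 39.3% in KO against 24.8% to 33.1% in WT TBR2+ libraries; its part in the results was not tested. Prdm16 averaged 187 CPM in KO and 253 CPM in WT PAX6+ cells, 52.3 and 55.6 CPM in KO and WT TBR2+ cells, and 19.0 and 25.3 CPM in KO and WT PAX6-TBR2- cells. Counts cover the whole gene, and the floxed exons are not named, so they check the genotype in part only. Markers followed the sorted populations: 8 radial glia genes summed to 2846 to 3835 CPM in PAX6+ libraries and to at most 711.8 CPM elsewhere, and 6 intermediate progenitor genes to 1550 to 2064 CPM in TBR2+ libraries and at most 451.6 CPM elsewhere. The 8 cortical neuron genes reached 5897 to 8128 CPM in TBR2+ libraries as well, against 8270 to 9594 CPM in PAX6-TBR2- libraries. The 7 interneuron genes summed to 328 to 1038 CPM in PAX6-TBR2- libraries and to at most 27.8 CPM elsewhere. Endothelial and mural genes (7) stayed at or under 42.1 CPM in sum, erythroid genes (5) at 36.1, microglial genes (5) at 9.95 and meningeal genes (4) at 4.68 CPM in every library. In such bulk samples, fewer cells of a type and less RNA per cell cannot be told apart. Library names carry a prefix that differs between populations, and what it stands for is not stated. Whatever the prefix marks and population cannot be told apart either.

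Levels are given below as CPM, counts scaled by TMM over all 24 libraries. In PAX6+ cells Pdzrn3 stood at 163, 126, 135 and 139.7 CPM in the KO libraries, against 25.2, 22.5, 34.6 and 25.4 CPM in the WT libraries. Every KO library lay above every WT library. In TBR2+ cells the KO libraries had 370.1, 392, 429 and 448 CPM and the WT libraries 91.7, 102, 81.5 and 112 CPM, again without overlap. In PAX6-TBR2- cells the KO libraries had 176, 184, 292 and 311 CPM and the WT libraries 178, 198, 273 and 304 CPM, and here the groups overlapped almost entirely. The log2 fold changes of KO over WT were 2.39 (SE 0.14) in PAX6+, 2.07 (SE 0.11) in TBR2+ and 0.01 (SE 0.20) in PAX6-TBR2- cells (n = 4 per group). By fold change Pdzrn3 ranked 26th of 14212, 15th of 12687 and 6180th of 12928 tested genes in these populations. In the same comparisons edgeR called 3.64% of the genes tested in PAX6+, 1.76% in TBR2+ and 0.00774% in PAX6-TBR2- cells, the last being 1 gene, Ppp1r14c. Since Pdzrn3 was chosen on the first pair of these contrasts, nothing is read from its place against these shares.

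**Figure D2:**
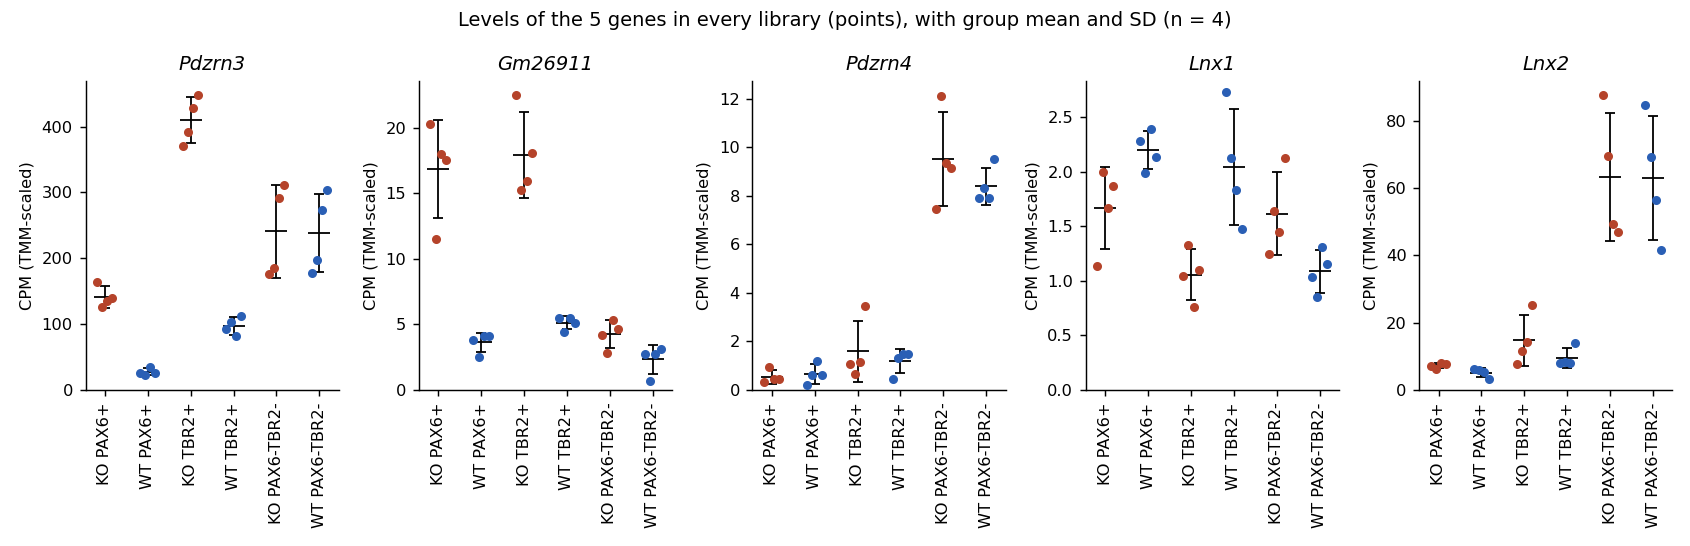
CPM (TMM-scaled over 24 libraries, linear axes from 0) of the 5 genes in each library of the 6 groups; points are libraries, bars are the mean and SD of 4. Pdzrn3 and Gm26911 separate KO from WT in PAX6+ and TBR2+ cells, whereas Pdzrn4 and Lnx2 are high in PAX6-TBR2- cells of both genotypes.

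Ordered by mean, Pdzrn3 was at 409.6 ± 35.2 CPM in KO TBR2+, 241 ± 70.6 in KO PAX6-TBR2-, 238 ± 59.8 in WT PAX6-TBR2-, 141 ± 16.1 in KO PAX6+, 96.9 ± 13.2 in WT TBR2+ and 26.9 ± 5.31 in WT PAX6+ (SD, n = 4 each). With TMM scaling, only the KO and WT PAX6-TBR2- groups, neighbours in this order, overlapped in range. With the same scaling, the mean of KO TBR2+ libraries was 1.72 times that of WT PAX6-TBR2- libraries. The mean of KO PAX6+ libraries was 1.45 times that of WT TBR2+ libraries. Relative to library totals, the KO PAX6+ and KO PAX6-TBR2- ranges met as well. KO PAX6+ replicate 1 had 1580 reads of 7620760, a larger share than 1134 of 6954927 in KO PAX6-TBR2- replicate 1. Among KO cells the highest level was in TBR2+ and not in PAX6-TBR2- cells, whereas among WT cells PAX6-TBR2- was highest. The log2 fold change of KO over WT was lower by 2.37 (SE 0.25) in PAX6-TBR2- than in PAX6+ cells and by 2.07 (SE 0.25) than in TBR2+ cells, differences given without a test because the gene was chosen for them. Between TBR2+ and PAX6+ it differed by -0.30 (SE 0.25). Since Pdzrn3 was highest in PAX6-TBR2- cells among the WT groups, the neuron markers were set beside it, and their sum was 386 to 398 CPM in KO and 376 to 448 CPM in WT PAX6+ libraries, and 5897 to 8128 CPM in KO and 6199 to 7832 CPM in WT TBR2+ libraries. These ranges overlapped between genotypes in both populations. In PAX6+ cells most of the sum was Map2, at 296.8 CPM in KO and 280.2 CPM in WT; 6 of the 8 markers were below 0 (median log2 fold change -0.32), and Dcx, a microtubule gene of young neurons, fell to 28.2 CPM in KO, against 57.2 CPM in WT (-1.01, SE 0.21, adjusted p = 0.0081, edgeR). In TBR2+ cells 4 of the 8 were above 0 (median 0.02) and none passed in edgeR. Of 8 radial glia genes 6 were above 0 in PAX6+ cells (median 0.27), with Slc1a3 called (0.43, adjusted p = 0.0354, edgeR). Of 6 intermediate progenitor genes 1 was above 0 there (median -0.20), and Eomes was called (-0.74, adjusted p = 0.0358, edgeR). With the replicate block, Vim, Fabp7 and Hes1 were also called higher and Elavl4 lower in PAX6+ cells. In TBR2+ cells these medians were 0.22 and -0.07, with none called in edgeR without the block. The 5 Cajal-Retzius genes summed to 16.6 to 97.2 CPM in KO and 32.4 to 299 CPM in WT PAX6+ libraries. Replicate 3 held the highest PAX6+ sum in both genotypes. The remaining PAX6+ libraries lay at 16.6 to 36.5 CPM in KO and 32.4 to 53.0 CPM in WT. In TBR2+ libraries these genes summed to 466 to 699 CPM in KO and 221 to 648 CPM in WT. All 4 tested were below 0 in PAX6+ cells (median -1.31) and all 5 above 0 in TBR2+ cells (median 0.57), with none called in edgeR. With the replicate block, Reln (-1.07, adjusted p = 0.0013), Trp73 (-1.35, adjusted p = 0.0199) and Nhlh2 (-1.43, adjusted p = 0.0411) were lower in KO than in WT PAX6+ cells (edgeR). The Cajal-Retzius values thus lay opposite to Pdzrn3 in PAX6+ cells and on its side in TBR2+ cells. The part of any of these cell type markers in the Pdzrn3 values was not tested.

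Gm26911 followed Pdzrn3 in the progenitors. In PAX6+ cells it stood at 20.3, 11.5, 18.02 and 17.5 CPM in KO libraries and at 3.77, 2.53, 4.09 and 4.07 CPM in WT libraries. In TBR2+ cells it stood at 22.5, 15.2, 15.9 and 18.1 CPM in KO and at 5.47, 4.41, 5.51 and 5.08 CPM in WT libraries. Neither pair of groups overlapped. In PAX6-TBR2- cells KO libraries had 4.19, 2.79, 5.31 and 4.64 CPM and WT libraries 2.70, 0.677, 2.76 and 3.13 CPM, and the ranges overlapped, with the lowest WT value resting on 4 reads. The log2 fold changes of KO over WT were 2.23 (SE 0.22), 1.81 (SE 0.19) and 0.79 (SE 0.35) in the order of the populations. In WT, Gm26911 did not share the order of Pdzrn3. It was lower in PAX6-TBR2- than in TBR2+ cells (log2 fold change -1.05, SE 0.33), where Pdzrn3 was higher.

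The balance of the pair differed between the populations. For every 100 reads of Pdzrn3 there were 11.9 ± 1.87 reads of Gm26911 in KO and 13.5 ± 2.32 in WT PAX6+ cells (SD, n = 4 each). There were 4.43 ± 1.11 in KO and 5.39 ± 1.17 in WT TBR2+ cells, and 1.80 ± 0.415 in KO and 0.974 ± 0.481 in WT PAX6-TBR2- cells. KO and WT ranges overlapped in each population (KO 9.14 to 13.4 against WT 11.3 to 16 in PAX6+, KO 3.71 to 6.08 against WT 4.31 to 6.76 in TBR2+, and KO 1.49 to 2.38 against WT 0.342 to 1.51 in PAX6-TBR2- cells), while the ranges of the 3 populations lay apart from each other. Between libraries of the same replicate number, the ratio was higher in KO in 4 of 4 PAX6-TBR2- pairs (2.38, 1.51, 1.82 and 1.49 in KO, against 1.51, 0.342, 1.01 and 1.03 in WT) and lower in KO in 3 of 4 PAX6+ pairs. Per kb of exon, Gm26911 was at 35.8% of Pdzrn3 in KO and 40.8% in WT PAX6+ cells, and at 5.43% in KO and 2.94% in WT PAX6-TBR2- cells. How many of these reads come from unspliced Pdzrn3 RNA was not tested.

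Across WT populations, Pdzrn3, Lnx2 and Pdzrn4 were higher in PAX6-TBR2- cells than in progenitors. The relatives were tested with edgeR's quasi-likelihood test and Benjamini-Hochberg adjustment over all genes tested; Pdzrn3 and Gm26911 are described only, because the WT PAX6+ and TBR2+ libraries took part in their choice. Of the 5 genes, 4 passed the filter on low counts between TBR2+ and PAX6+ cells, 4 between PAX6-TBR2- and TBR2+ cells, and 5 between PAX6-TBR2- and PAX6+ cells. On the log2 scale, Pdzrn3 was higher in TBR2+ than in PAX6+ cells by 1.86 (SE 0.14) and in PAX6-TBR2- than in TBR2+ cells by 1.31 (SE 0.16). Lnx2 was higher by 0.91 (SE 0.25, adjusted p = 0.00437) and by 2.72 (SE 0.23, adjusted p = 1.56e-07) in the same contrasts. Pdzrn4 was higher by 2.86 (SE 0.30, adjusted p = 1.48e-06) in PAX6-TBR2- than in TBR2+ cells and was too low to test between TBR2+ and PAX6+ cells. Lnx1 was lower in PAX6-TBR2- than in PAX6+ cells (-0.96, SE 0.30, adjusted p = 0.0101) and stood at -0.08 (SE 0.31, adjusted p = 0.827) between TBR2+ and PAX6+ cells. Scaling to library totals in place of TMM moved the median of all genes by -0.51 between TBR2+ and PAX6+ and by -0.43 between PAX6-TBR2- and PAX6+ cells, and kept the direction for Pdzrn3, Lnx1 and Lnx2. Under it, Lnx2 stood at 0.40 and Lnx1 at -0.61 between TBR2+ and PAX6+ cells, and Lnx1 at -1.45 between PAX6-TBR2- and PAX6+ cells. Gm26911, at 0.52 (SE 0.25) between TBR2+ and PAX6+ cells with TMM, stood at -0.01. Between PAX6-TBR2- and PAX6+ cells the log2 fold changes were 3.16 for Pdzrn3 (SE 0.19), 3.61 for Lnx2 (SE 0.23, adjusted p = 1.48e-09) and 3.63 for Pdzrn4 (SE 0.34, adjusted p = 1.36e-07, edgeR). Of the tested relatives, 1 of 2 was called between TBR2+ and PAX6+, 2 of 2 between PAX6-TBR2- and TBR2+ and 3 of 3 between PAX6-TBR2- and PAX6+ cells, where 63.2%, 49% and 66.6% of all tested genes were called.

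Lnx2 was the second ligase gene per kb of exon in every group, and neither it nor Pdzrn4 or Lnx1 passed between the genotypes. In PAX6+ cells it stood at 7.03, 6.13, 8.09 and 7.66 CPM in KO and 6.14, 5.89, 5.16 and 3.05 CPM in WT libraries, ranges that met only at 6.13 and 6.14. In TBR2+ cells it stood at 7.74, 11.6, 14.2 and 25.3 CPM in KO and 8.05, 8.17, 7.89 and 13.9 CPM in WT libraries. In both genotypes the highest TBR2+ library was replicate 4, and without KO replicate 4 the log2 fold change in TBR2+ cells was 0.22 in place of 0.62. The log2 fold changes were 0.51 (SE 0.23, adjusted p = 0.379) in PAX6+, 0.62 (SE 0.30, adjusted p = 0.439) in TBR2+ and 0.025 (SE 0.22, adjusted p = 0.9875) in PAX6-TBR2- cells, and none passed in edgeR. Pdzrn4 stood at 7.45, 12.1, 9.33 and 9.15 CPM in KO and 7.88, 8.30, 7.88 and 9.50 CPM in WT PAX6-TBR2- cells (0.16, SE 0.18, adjusted p = 0.896). In the progenitors it had 2 to 22 reads a library, too few for the filter. Lnx1 was low throughout. In PAX6+ cells it had 11, 26, 19 and 22 reads in KO and 26, 29, 38 and 21 reads in WT libraries (-0.38, SE 0.32, adjusted p = 0.741). In TBR2+ cells it had 7, 8, 4 and 7 reads in KO and 18, 13, 10 and 9 in WT libraries, or 1.06 ± 0.233 CPM in KO and 2.04 ± 0.532 CPM in WT (SD, n = 4 each). These ranges did not overlap, but the gene missed the filter, and in the fit of all 24 libraries, where it could be tested, it did not pass (-0.94, adjusted p = 0.183 in edgeR, and 0.224 to 0.584 over the alternatives). Over the 3 genes chosen by family, 0 were called between KO and WT in any population: 0 of 2 tested in PAX6+, 0 of 1 in TBR2+ and 0 of 2 in PAX6-TBR2- cells, where 3.64%, 1.76% and 0.00774% of all tested genes were called. At those shares no call among so few genes is not a result about them. At an unadjusted p under 0.05 there was 1, Lnx2 in PAX6+ cells, and DESeq2 called 0.

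**Figure D3:**
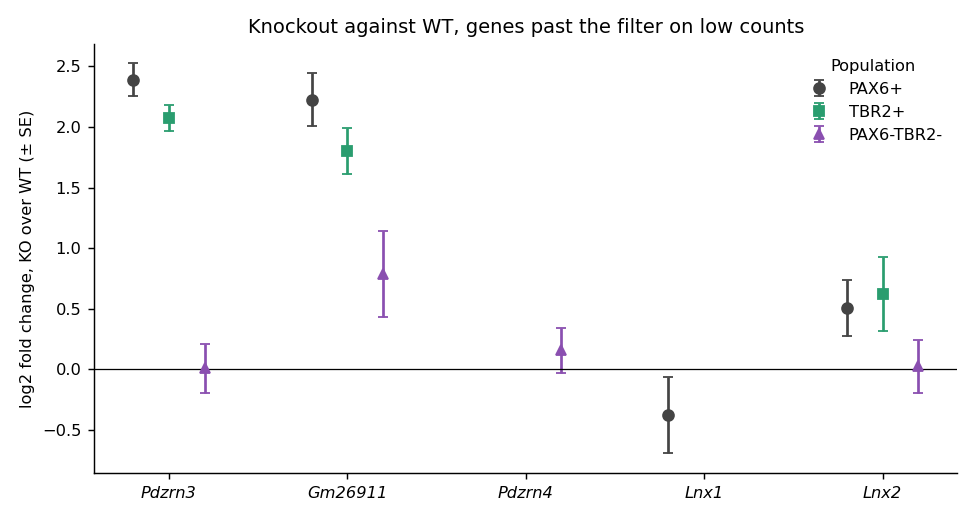
Log2 fold change of KO over WT with its SE (edgeR, n = 4 per group) for each gene and population; genes below the filter on low counts have no point. Pdzrn3 and Gm26911 lie between 1.81 and 2.39 in PAX6+ and TBR2+ cells, and every point of Pdzrn4, Lnx1 and Lnx2 lies between -0.38 and 0.62.

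The KO effect of the relatives was also compared between populations, in a fit of all 24 libraries where all 5 genes passed the filter. None of the 9 differences for Pdzrn4, Lnx1 and Lnx2 passed, and 2, both of Lnx1, had an unadjusted p under 0.05. The KO effect on Lnx1 was higher by 1.49 (SE 0.45, adjusted p = 0.534, edgeR) in PAX6-TBR2- than in TBR2+ cells, and by 0.93 (SE 0.41, adjusted p = 0.610, edgeR) than in PAX6+ cells. Over all genes 0.523% were called between TBR2+ and PAX6+, 0.0464% between PAX6-TBR2- and TBR2+, and 0.683% between PAX6-TBR2- and PAX6+ cells. Gm26911 gave -1.45 (SE 0.38) between PAX6-TBR2- and PAX6+ cells and -1.04 (SE 0.39) between PAX6-TBR2- and TBR2+ cells, as a description.

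Levels of different genes were compared per kb of exon. The 4 ligase genes together stood at 21.6 ± 2.11 CPM per kb in KO and 5.54 ± 0.868 in WT PAX6+ cells, at 60.3 ± 6.61 in KO and 16.2 ± 2.33 in WT TBR2+ cells, and at 49.5 ± 5.88 in KO and 48.7 ± 4.58 in WT PAX6-TBR2- cells (SD, n = 4 each). Pdzrn3 made up 90% of this sum in KO and 66.9% in WT PAX6+ cells, and 93.8% in KO and 82.4% in WT TBR2+ cells. In PAX6-TBR2- cells its share was 66.0% in KO and 66.7% in WT. Lnx2 had 7.40% in KO and 20.2% in WT PAX6+ cells, 5.19% in KO and 12.7% in WT TBR2+ cells, and 29.0% in KO and 29.1% in WT PAX6-TBR2- cells. Lnx1 reached 10.5% only in WT PAX6+ cells and was at 2.07% in KO PAX6+ cells. Most of the ligase RNA was therefore Pdzrn3 in each group, and these shares follow in part from the genotype difference for which Pdzrn3 was chosen.

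**Figure D4:**
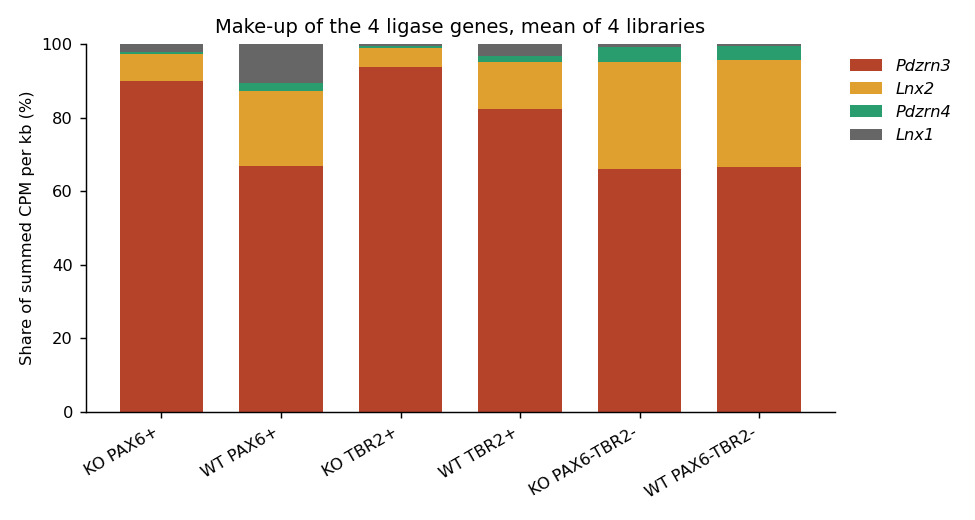
Mean share (%) of Pdzrn3, Lnx2, Pdzrn4 and Lnx1 in their summed CPM per kb of exon, by group (n = 4 libraries). Pdzrn3 takes 66.0% to 93.8% of each bar, and Lnx2 takes most of the rest.

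Among PAX6-TBR2- libraries Pdzrn3 and Lnx2 parted the replicate numbers in opposite ways. Pdzrn3 was at 176 and 184 CPM in KO replicates 1 and 2 and at 292 and 311 in KO replicates 3 and 4; in WT it was at 178 and 198 in replicates 1 and 2 and at 273 and 304 in replicates 3 and 4. Lnx2 was at 87.7, 69.6, 49.4 and 46.9 CPM in KO and at 84.8, 69.4, 56.5 and 41.6 CPM in WT libraries. Both genes differed more between replicate numbers than between genotypes. Within replicate numbers, the log2 ratio of KO to WT ran from -0.10 to 0.10 for Pdzrn3 and from -0.19 to 0.17 for Lnx2. It was above 0 in 4 of 4 pairs for Gm26911, between 0.57 and 2.04, and for Lnx1, between 0.14 and 0.95, where Lnx1 had 5 to 32 reads a library. The interneuron genes moved with Pdzrn3: they summed to 432, 629, 1035 and 1038 CPM in KO and to 328, 427, 685 and 898 CPM in WT replicates 1 to 4, and their part in the Pdzrn3 values was not tested. In the fit blocked on the replicate number the interneuron genes Gad2 (0.58, adjusted p = 0.000323), Gad1 (0.49, adjusted p = 0.00619) and Dlx1 (0.43, adjusted p = 0.00339) were higher in KO than in WT PAX6-TBR2- cells (edgeR). What a replicate number stands for is not given in the labels.

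**Figure D5:**
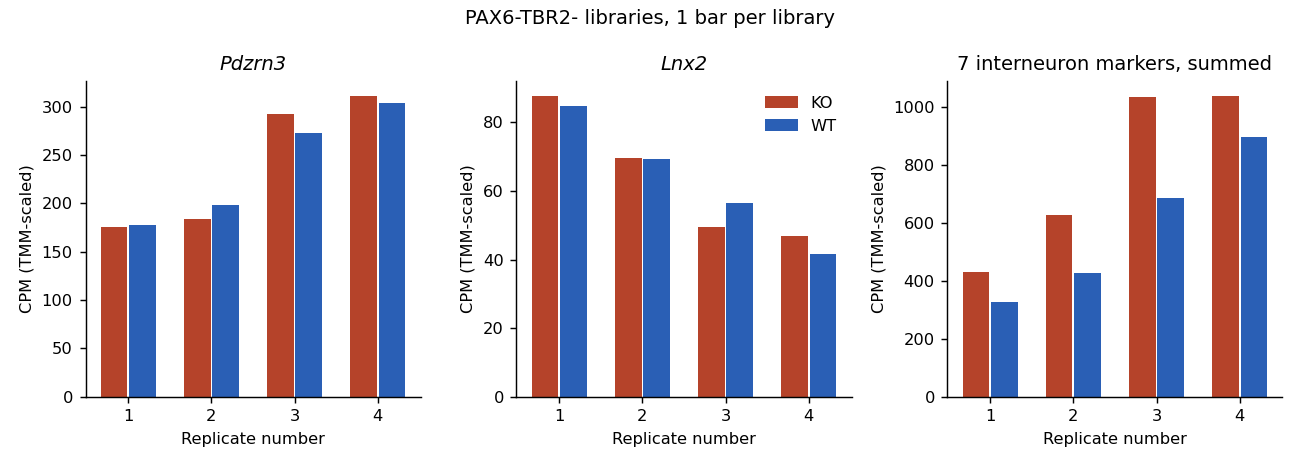
CPM of Pdzrn3, of Lnx2 and of 7 summed interneuron markers in each PAX6-TBR2- library, by replicate number and genotype (1 bar per library, linear axes from 0). Replicates 3 and 4 lie above replicates 1 and 2 for Pdzrn3 and the markers, and below them for Lnx2, in KO and WT.

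Emx1, where the Cre allele sits, is on the same chromosome 15.95 Mb from Pdzrn3, so the genes around Pdzrn3 were examined. Of 10 annotated genes within 1 Mb that are in the tables, 5 were tested. Besides Gm26911, these were Rybp, Shq1, Ppp4r2 and Cntn3, and none passed in edgeR in any population, with 1 at an unadjusted p under 0.05, Cntn3 in TBR2+ cells, and 0 called by DESeq2. Of all tested genes 3.64%, 1.76% and 0.00774% were called in PAX6+, TBR2+ and PAX6-TBR2- cells. No call among so few neighbours is therefore not a result about them. The nearest, Ppp4r2, which encodes a regulatory subunit of a protein phosphatase and lies 279.7 kb away, stood at -0.07 (SE 0.19) in PAX6+, 0.00154 (SE 0.16) in TBR2+ and 0.22 (SE 0.17) in PAX6-TBR2- cells. Cntn3, a contactin gene 784.8 kb away, stood at 3.24 CPM in KO and 1.09 CPM in WT TBR2+ cells (1.51, SE 0.47, adjusted p = 0.155, edgeR). Between Emx1 and Pdzrn3, 2 of 99 tested genes were called in PAX6+ cells (Fbln2 and Lrig1), or 2.02% beside 3.64% of all genes. In TBR2+ cells 2 of 88 were called (Tgfa and Iqsec1), or 2.27% beside 1.76%, and in PAX6-TBR2- cells 0 of 88, beside 0.00774%. Over the whole of chromosome 6 without Pdzrn3, 36 of 686 tested genes were called in PAX6+ cells, or 5.25% beside 3.64% of all genes. In the same set 11 of 594 were called in TBR2+ cells, or 1.85% beside 1.76%, and 0 of 618 in PAX6-TBR2- cells, beside 0.00774%. The counts of 36 and 11 include Gm26911, which is described only, so nothing is read from its call. Emx1 itself was at 17.1 ± 3.77 CPM in KO and 22 ± 2.14 in WT PAX6+ cells (SD, n = 4 each, as below). It was at 54.1 ± 6.02 in KO and 63.3 ± 2.70 in WT TBR2+ cells. In PAX6-TBR2- cells it was at 12.1 ± 1.00 in KO and 18.1 ± 3.56 in WT, where KO libraries reached 13.5 CPM and WT libraries began at 14.1 CPM. Its log2 fold changes were -0.36, -0.23 and -0.60 in this order (unadjusted p = 0.0495, 0.0421 and 0.00275, edgeR). None passed after adjustment (adjusted p = 0.409, 0.381 and 0.529, edgeR).

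Lists of genes from pathways in which the family is known to act, and of its partners, were also examined. They were chosen with earlier results of these data known, so no link to a pathway is read from their calls. Jag1, Daam2, Kif26b and Epha7 were called between KO and WT progenitors. Their lists are read beside the 3.64%, 1.76% and 0.00774% of all tested genes called in PAX6+, TBR2+ and PAX6-TBR2- cells. Of 12 Numb and Notch genes tested in PAX6+ cells 1 was called, the Notch ligand gene Jag1 at 4.30 CPM in KO and 12.9 CPM in WT (-1.58, SE 0.22, adjusted p = 0.000384, edgeR). Numb, the partner of LNX1, was at -0.07 (SE 0.11) in PAX6+, -0.15 (SE 0.12) in TBR2+ and -0.14 (SE 0.13) in PAX6-TBR2- cells. No gene of this list passed in TBR2+ (0 of 11) or PAX6-TBR2- cells (0 of 12), by edgeR, by DESeq2 or at an unadjusted p under 0.05. Its extremes were otherwise Hes1, a Notch target, at 0.40 (SE 0.12, adjusted p = 0.113, edgeR) in PAX6+ and -0.60 in PAX6-TBR2- cells, the receptor gene Notch1 at 0.33 and Jag1 at -0.23 in TBR2+ cells, and the ligand gene Dll3 at 0.37 in PAX6-TBR2- cells. Its median log2 fold change was -0.08 in PAX6+, 0.19 in TBR2+ and -0.05 in PAX6-TBR2- cells, beside 0.00197, 0.00243 and 0.000713 over all genes tested.

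Of the Wnt5a, Ror and planar polarity genes, 1 of 19 was called in PAX6+, 2 of 18 in TBR2+ and 0 of 17 in PAX6-TBR2- cells (3.64%, 1.76% and 0.00774% of all tested genes), with medians of -0.08, -0.01 and -0.05. At an unadjusted p under 0.05 the last held 3 genes, and DESeq2 called 0 of it and, in PAX6+ cells, Celsr2 besides Daam2. Daam2, which encodes a formin that binds Dishevelled, was at 62.5 CPM in KO and 37.1 CPM in WT PAX6+ cells (0.76, SE 0.13, adjusted p = 0.00164, edgeR) and at 14.7 CPM in KO and 2.74 CPM in WT TBR2+ cells (2.41, SE 0.31, adjusted p = 0.000841, edgeR). Kif26b, which encodes a kinesin of the Wnt5a and Ror pathway, fell to 116 CPM in KO, against 225 CPM in WT TBR2+ cells (-0.95, SE 0.12, adjusted p = 0.000897, edgeR). In PAX6-TBR2- cells, where neither passed, Daam2 stood at 0.84 and Kif26b at -0.97. Celsr3, a planar polarity cadherin gene, was lowest in PAX6+ cells (-0.72, SE 0.33, adjusted p = 0.382, edgeR). Dvl3, a Dishevelled gene, was at -0.08 in PAX6+, -0.10 in TBR2+ and -0.17 in PAX6-TBR2- cells, and none of these passed. Of 7 tested ubiquitin conjugating enzyme genes, which hand ubiquitin to RING ligases, 0 were called in any population by edgeR or DESeq2 and 0 had an unadjusted p under 0.05. Their log2 fold changes lay between -0.20 (Ube2v2) and 0.19 (Ube2d1) in PAX6+, -0.06 (Ube2d3) and 0.28 (Ube2n) in TBR2+, and -0.18 (Ube2e1) and 0.26 (Ube2v2) in PAX6-TBR2- cells, with medians of -0.07, 0.06 and -0.05. Of the named partners of the family 5 were tested, and 1 of 5 was called in TBR2+ cells, beside 1.76% of all tested genes: Epha7, an ephrin receptor gene, which fell to 95.7 CPM in KO, against 145 CPM in WT TBR2+ cells (-0.60, SE 0.09, adjusted p = 0.0026, edgeR). In PAX6+ cells 0 of 5 passed in edgeR, where Epha7 (-0.39, adjusted p = 0.065) was the 1 gene at an unadjusted p under 0.05 and was called by DESeq2. In PAX6-TBR2- cells 0 of 5 passed, and Pbk, a kinase gene, was lowest (-1.21, SE 0.43, adjusted p = 0.610, edgeR) and alone at an unadjusted p under 0.05. The list's medians were -0.05, -0.07 and -0.08, and Musk was not among the genes tested.

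In PAX6+ and PAX6-TBR2- cells, correlation of same-numbered KO and WT libraries pointed to pairs, which the labels do not state. A fit with the number as a block called 1045 genes in PAX6+ against 517 without it, and 153 in PAX6-TBR2- against 1. No call of Pdzrn4, Lnx1 or Lnx2 changed with it. Of the lists, it added Hes1 (0.40, adjusted p = 0.0113), Vangl2 (-0.22, adjusted p = 0.0372), Celsr1 (-0.34, adjusted p = 0.00175), Celsr2 (0.41, adjusted p = 0.000333), Celsr3 (-0.69, adjusted p = 0.0471), Epha7 (-0.39, adjusted p = 0.00525) and Pbk (-0.36, adjusted p = 0.0199) in PAX6+ cells, and Kif26b (-0.95, adjusted p = 0.0487) in PAX6-TBR2- cells, all in edgeR.

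Genes with the most similar pattern were ranked by Pearson correlation of log2 CPM over the 24 libraries among 15091 genes; the libraries share 6 groups, so r describes group levels and carries no test. Nearest to Pdzrn3 were Sema6d (r = 0.893), Gm16701 (0.892), Fosl2 (0.885), Rab3gap2 (0.874) and Trp53i11 (0.859). Fosl2, a gene of an AP-1 transcription factor subunit, had its 6 group means in the same order as Pdzrn3, at 79.4 CPM in KO and 14.8 in WT TBR2+ cells, and 57.3 in KO and 52.8 in WT PAX6-TBR2- cells. Gm16701 likewise was highest in KO TBR2+ cells, at 20.5 CPM, against 8.44 in WT TBR2+ cells. Nearest to Gm26911 were Gabrg1 (0.854), Tll1 (0.822) and Ikzf2 (0.787), and Pdzrn3 was not among these 3. Pdzrn4 was nearest to Ptk2 (0.971), Jakmip2 (0.968) and Kif3a (0.968), and Lnx2 to B3galt1 (0.991), Stk32b (0.985) and Hivep2 (0.983), genes with their highest means in PAX6-TBR2- cells of both genotypes. For Lnx1 the nearest were Lhfpl2 (0.762), Alk (0.726) and Ppil3 (0.716).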

How the data were processed

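Sorted-cell RNA was extracted (RecoverAll), amplified by isothermal amplification (Ovation RNA-seq V2) and built into libraries (Ovation Ultralow V2) with no molecular identifiers stated, per the labels' protocols. The submitters' processing notes list the build mm10 and the tools STAR, featureCounts, cutadapt, FastQC and DESeq2; no tool version, annotation release or strand setting is given in these sources. The authors deposited raw counts per Ensembl gene for 2 lanes of each library, and the lanes were summed here. Chi-square per degree of freedom was 0.976 to 1.02 between lanes, which is sampling noise, and 5.65 to 45.5 between libraries of a group. The deposited normalized tables hold signal values that are whole multiples of 1 read within 1e-06 for 100% of values; reads were recovered from all columns but 1, of WT TBR2+, and called 517, 147 and 1 genes in PAX6+, TBR2+ and PAX6-TBR2- cells. Recovered reads equalled the raw counts in the 8 PAX6+ columns and exceeded them in all but 1 of the others, so the raw counts are the main data. Genes were named and placed with GENCODE M21 (37693 of 39017).

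Each comparison used edgeR 4.0.16 in R 4.3.3 (filterByExpr, TMM, glmQLFit and glmQLFTest, two-sided, Benjamini-Hochberg over all genes tested, called at an adjusted p under 0.05) on the libraries of the groups compared; the differences of the KO effect used all 24. The SE is the log2 fold change divided by the square root of F. CPM values were scaled by TMM over all 24 libraries, and log2 CPM used a prior count of 2. The test was also run on counts simulated from the PAX6+ libraries only, and no outcome of that run is given or relied on here. The precision of a CPM is limited by reads: Lnx1 and Pdzrn4 had 10 reads or fewer in several libraries.

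Same-numbered KO and WT libraries deviated together over 9044 genes in PAX6+ (r 0.23 to 0.61) and PAX6-TBR2- cells (0.12 to 0.49), where every pair exceeded 0.1. In TBR2+ cells replicates 1 (0.46) and 4 (0.39) did so, but replicates 2 (0.05) and 3 (0.03) did not. As a set, same-numbered libraries of different WT populations did not either. The pairing is inferred from the data; the labels give only the number. Alternatives were DESeq2 1.42.0, its size factors in edgeR, no filter, the replicate block, 1 fit of all populations, recovered reads, each library left out, and library totals without TMM, the last chosen after seeing the data. Pdzrn3 and Gm26911 were fitted with all genes, but no p-value of theirs is given. The members, lists and markers were chosen with earlier results of these data known. Named genes were the 5 members, called or extreme genes of the lists, the tested neighbours within 1 Mb, Emx1 and Prdm16, and the 5 or 3 genes most like a member; Numb, Dvl3, Fip1l1 and Ppp1r14c were added for context.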

Additional observations from a re-analysis of the deposited data

Results flagged for a closer look

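In 3 of 30 combinations of gene and group, 1 of the 4 libraries lay far from the other 3 (its gap to the nearest, divided by the range of the group, was above Dixon's 95% critical value, which chance gives in about 1 of 20 groups). All 3 were in TBR2+ cells. Lnx2 was at 13.9 CPM in WT replicate 4, above 7.89 to 8.17 CPM in the other WT libraries. Pdzrn4 was at 3.46 CPM in KO replicate 4, on 22 reads, and at 0.456 CPM in WT replicate 1, on 3 reads. No Pdzrn3 or Gm26911 library stood apart in this way.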

How the results depend on the processing

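Under the alternatives other than leaving each library out, 219 log2 fold changes of named genes counted as the same. Another 5 moved, 1 reversed, 2 gained a call and 1 lost it. For KO effects on Pdzrn3 and Gm26911, and for library totals, the same meant a shift within the largest within-group SD of log2 CPM. Elsewhere it meant the same direction and call. No call of Pdzrn4, Lnx1 or Lnx2 changed. Counts of genes called over all genes moved more. Between KO and WT they were 1045 with the replicate block in PAX6+ cells (517 without). In TBR2+ cells (223) they were 350 with DESeq2, 728 with no filter on low counts, 720 with the replicate block and 147 from recovered reads. In PAX6-TBR2- cells (1) they were 24 with DESeq2, 38 with no filter, 153 with the block and 6 with all populations in 1 fit. With no filter, 237, 51 and 174 genes differed in KO effect between TBR2+ and PAX6+ (79), PAX6-TBR2- and TBR2+ (7), and PAX6-TBR2- and PAX6+ cells (103). Between WT populations the libraries share only a number, and pairing is unclear in TBR2+ cells. There the block called, among the neuron and Cajal-Retzius markers in TBR2+ cells, Reln (0.80, adjusted p = 0.00191), Tubb3 (-0.44, adjusted p = 0.0082) and Bcl11b (0.70, adjusted p = 2.4e-05), in edgeR. Cntn3 in TBR2+ cells passed with no filter (1.51, adjusted p = 0.0198) and with the block (1.52, adjusted p = 0.0408), both in edgeR. Ppp1r14c missed with all populations in 1 fit (1.58, adjusted p = 0.0574, edgeR). With library totals in place of TMM, Pdzrn3 was 1.34 between WT TBR2+ and PAX6+ (1.86 with TMM) and 2.71 between WT PAX6-TBR2- and PAX6+ cells (3.16). Lnx2 was 0.40 (0.91) and Lnx1 -0.61 (-0.08) between WT TBR2+ and PAX6+, Lnx1 was -1.45 (-0.96) between WT PAX6-TBR2- and PAX6+, and Gm26911 turned to -0.0148 between WT TBR2+ and PAX6+ (0.52). Leaving out each library in turn gave 358 to 529 called genes for PAX6+. For TBR2+ the range was 121 to 420, with 420, 139 and 142 when KO replicates 1, 2 and 3 were dropped, 137 on dropping WT replicate 1 and 121 on dropping WT replicate 3. For PAX6-TBR2- it was 1 to 3, with 3 on dropping KO replicate 4 and 2 on dropping WT replicate 4. Pdzrn3 stayed at 2.32 to 2.53, 2.00 to 2.14 and -0.14 to 0.16 between KO and WT. Lnx2 between KO and WT TBR2+ cells ran between 0.22, on dropping KO replicate 4, and 0.86. Lnx2 between KO and WT PAX6-TBR2- cells, -0.18 to 0.20, and Lnx1 between WT TBR2+ and PAX6+ cells, -0.26 to 0.0602, changed sign without passing. The cause of these shifts was not tested. Depth limits Lnx1 and Pdzrn4 in progenitors, where most libraries held under 30 reads.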
